A study of Mus musculus with 2 samples.

Results

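Klf2, Klf4 and Klf5 are 3 of the 22367 protein-coding genes of the GENCODE M1 annotation on assembled mouse chromosomes (build mm9). They were chosen by name, and each was taken with 200 kb on either side. The 3 regions hold 20 of the 33756 CTCF peaks that lie on assembled chromosomes, out of 33788 deposited peaks. Klf2 has 12 of these peaks, Klf4 has 5 and Klf5 has 3. For each gene the peaks, the direction of their CTCF motifs, the nearest summit on each side and the sequencing tags of both libraries were examined.

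Klf2, Klf4 and Klf5 are Krüppel-like factors, transcription factors with zinc fingers that bind GC-rich DNA. In mouse embryonic stem cells (ESCs) they act together in keeping the cells self-renewing, and Klf4 is among the factors used to reprogram somatic cells. CTCF is a zinc finger protein that recognises a long, asymmetric DNA motif. It marks insulators and, together with the cohesin ring, the anchors of chromatin loops, for which the direction of the motif is known to matter.

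The cells were R1/E, a mouse ESC line, grown without feeder cells in medium with LIF. They carry a stably integrated bacterial artificial chromosome (BAC) with the CTCF gene and its surroundings, in which CTCF is fused at its C-terminus to a LAP cassette that contains GFP, so the tagged protein is an extra copy driven by the BAC. Cells with the BAC were selected by drug resistance and sorted for GFP. The CTCF library was made by ChIP with an antibody raised in goat against eGFP, and the control library from the same line with a goat IgG isotype antibody. The labels also describe the control as input DNA. There is 1 library per antibody, so every test here compares these 2 libraries and not conditions, and intervals cover counting error only.

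The CTCF library holds 8391191 tags of 35 bp and the IgG library 7988889, with 0 repeated positions in either. All deposited summits had a median height of 13 tags (quartiles 10 and 17), the height being the pileup of tags at the summit. Their median score was 116.96, where the score is -10 times the log10 of the p-value given by MACS and starts at 50. A CTCF motif at p 1e-05 or less was found within 150 bp of 72.6% of them, against 5.55% of positions 2 kb away. Motifs are called forward where they read on the plus strand in the direction of the core CCACCAGGGGGC, and reverse where they read so on the minus strand. Left and right below mean lower and higher chromosome coordinates. Klf2 and Klf5 are transcribed to the right and Klf4 to the left.

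The motifs that matter most for where the genes stand between CTCF sites are those at the nearest summits, at the summit inside Klf4 and at the highest summit of the 3 regions. Each is shown 5′ to 3′ on the strand of the motif, with the motif in capitals.
Klf2, nearest summit on the left (chr8:74817368-74817428, minus strand, between genes): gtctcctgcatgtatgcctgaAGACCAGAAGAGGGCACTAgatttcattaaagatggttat
Klf2, nearest summit on the right (chr8:74889874-74889934, minus strand, intron of Eps15l1): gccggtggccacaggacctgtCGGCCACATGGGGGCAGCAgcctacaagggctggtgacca
Klf4, summit inside the gene (chr4:55543297-55543357, minus strand, coding sequence of exon 3): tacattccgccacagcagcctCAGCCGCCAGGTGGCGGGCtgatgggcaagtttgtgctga
Klf4, highest summit of the region (chr4:55377432-55377492, minus strand, intron of Rad23b): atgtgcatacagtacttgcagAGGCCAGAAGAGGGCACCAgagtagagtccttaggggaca
Klf4, nearest summit on the right (chr4:56235500-56235560, minus strand, intron of the transcript 2310081O03Rik): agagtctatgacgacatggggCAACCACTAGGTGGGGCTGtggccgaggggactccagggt
Klf5, nearest summit on the left (chr14:99541632-99541692, plus strand, intron of Pibf1): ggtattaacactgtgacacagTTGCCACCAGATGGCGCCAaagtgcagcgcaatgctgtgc

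The 3 genes differed in how many CTCF peaks surround them. The Klf2 region held 2.98 peaks per 100 kb, the Klf4 region 1.23 and the Klf5 region 0.723, against 1.32 over the genome. The median region of a protein-coding gene held 10 peaks (quartiles 5 and 15). Fewer peaks than at Klf2 were found around 59.0% of genes, fewer than at Klf4 around 24.4% and fewer than at Klf5 around 15.4%. The regions also differed in gene content, with 15 protein-coding genes overlapping the Klf2 region, 2 the Klf4 region and 3 the Klf5 region, and in GC content, at 48.2%, 44.7% and 42.4%. How far gene content and base composition go with the number of peaks was not tested.

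Over the 20 peaks, summit heights ran from 7 to 29 tags with a median of 12, and the peaks held 12 to 64 CTCF tags and 0 to 7 IgG tags each. A motif was found at 12 of the 20 summits, beside 72.6% of all summits. Of these motifs 4 were forward and 8 reverse. Within 150 bp of the other 8 summits the best matching site had a p between 2.20e-05 and 8.77e-04. Among these 8, the Klf2 peaks with summits 45.9 kb upstream and 103.9 kb downstream hold a motif that reaches past this limit. By place, 12 summits lay between genes, 6 in introns and 2 in coding sequence, where 2.08% of all summits lie. The coding sequences are those of Klf4 and Klf5.

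**Figure D1:**
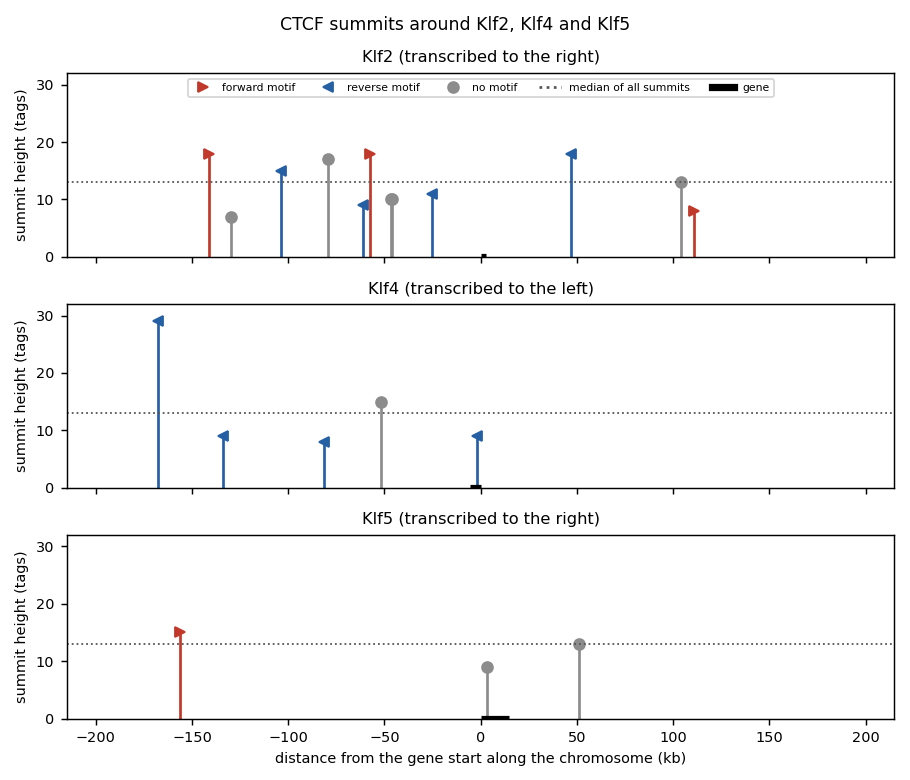
CTCF summits in the 3 regions, with the distance from the gene start along the chromosome in kb on the horizontal axis and the summit height in tags on the vertical axis. Triangles point right for a forward motif and left for a reverse motif, and grey points have no motif within 150 bp. The dotted line is the median height of all summits (13 tags) and the black bar is the gene. The Klf2 panel holds 12 summits on both sides of the gene, the Klf4 panel 5 that all lie in the gene or to its left, and the Klf5 panel 3.

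Klf2 (chr8:74842932-74845555, plus strand, 2624 bp, ENSMUSG00000055148.7) had no summit inside the gene. Its nearest summits lay 25538 bp to the left, upstream of the gene, and 44404 bp to the right, downstream. The left summit had a height of 11 tags and a score of 81.41, and its peak held 19 CTCF and 2 IgG tags. The right summit had a height of 18 tags and a score of 200.64, with 33 CTCF and 3 IgG tags in the peak. The motifs at both summits were reverse, as at 24.7% of the 12130 genes that have a motif at the nearest summit on each side. Over the same genes the motifs were convergent, forward on the left and reverse on the right, at 28.8%. The interval between these summits was 72.6 kb, shorter than the median of 112.0 kb over all genes, and 34.3% of genes had a shorter one. Besides Klf2 it holds the gene Gm10282 and the 3′ part of Eps15l1, which encodes a protein of clathrin-mediated endocytosis.

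Most of the Klf2 peaks stood upstream, 9 on the left against 3 on the right. The 3 highest summits of the region shared a height of 18 tags. One lay 141.4 kb upstream in an intron of Rab8a, which encodes a small GTPase of vesicle transport, with a forward motif, a score of 267.34 and 47 CTCF against 2 IgG tags. Another lay 57.8 kb upstream between genes, with a forward motif and 28 CTCF against 4 IgG tags. The remaining one is the nearest summit on the right. On the left, the forward motif 57.8 kb upstream and the reverse motif of the nearest summit thus face each other, with the summits 32.2 kb apart. Next in height was a summit of 17 tags with 25 CTCF and 3 IgG tags, 230 bp upstream of the start of Ap1m1, which encodes a subunit of the AP-1 clathrin adaptor. That summit had no motif at the threshold. Its best site had a p of 2.20e-05 and reads, on the minus strand of chr8:74763566-74763626 with the site in capitals:
Ap1m1 start: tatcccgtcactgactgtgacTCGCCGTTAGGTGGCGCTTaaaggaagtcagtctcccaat

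Of the 12 summits around Klf2, 4 lay within 2 kb of the start of a protein-coding gene, beside 8.3% of all summits, in a region that 15 such genes overlap. They lay 402 bp upstream of Hsh2d, 1607 bp upstream of Gm11034, 230 bp upstream of Ap1m1 and 1436 bp upstream of Eps15l1. Immediately left of the Ap1m1 summit lies a stretch of 15.1 kb, between 94.8 and 79.7 kb upstream of Klf2, with 0 tags of either library and 0 unknown bases in the assembly. Motif sequences recur in it, for instance the same one at chr8:74749734 and chr8:74759076. That sequence also lies at chr4:55432400, in a stretch of 5.5 kb without tags in the Klf4 region. Whether tags could be placed in such repeated sequence was not tested. The 2 peaks in the middle of the left side, 46.5 and 45.9 kb upstream, are neighbours with summits of 10 tags each. Neither has a motif that lies wholly within 150 bp of its summit. The peak at 45.9 kb holds a reverse motif (chr8:74797183-74797201, p 5.42e-07) that runs past this limit.

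Klf4 (chr4:55540013-55545347, minus strand, 5335 bp, ENSMUSG00000003032.7) had a summit inside the gene and none upstream within 200 kb. The inner summit, at position 55543349, lay 1998 bp downstream of the start in exon 3, the exon that holds most of the coding sequence. Its height was 9 tags and its score 52.8, above 3.66% of all peaks. The peak held 14 CTCF and 0 IgG tags. Exon 3 as a whole, 985 bp with a GC content of 64.9%, held 18 CTCF and 0 IgG tags, while the other 4 exons together held no summit and at most 5 CTCF tags each. The motif of this summit had a p of 1.40e-06 and was reverse, on the coding strand of Klf4, with the summit 22 bp on its 5′ side. The sequence within 150 bp of the summit had a GC content of 64.1% and 19 CpG dinucleotides, against medians of 46.2% and 3 over all summits.

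Klf5 (chr14:99697910-99712624, plus strand, 14715 bp, ENSMUSG00000005148.7) also had a summit in a large coding exon. It lay 3119 bp downstream of the start in exon 2, at position 99701029, with a height of 9 tags and a score of 96.99, above 38.9% of all peaks. Exon 2, 874 bp with a GC content of 51.5%, held 23 CTCF and 3 IgG tags, as many as the peak. No motif passed the threshold here. The best site, on the minus strand and hence opposite to the gene, had a p of 3.72e-05 and reads as follows, with the site in capitals.
Klf5, best site at the summit inside the gene (chr14:99701111-99701171, minus strand): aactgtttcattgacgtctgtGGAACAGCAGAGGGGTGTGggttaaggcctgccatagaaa
In Klf2, exon 2 likewise holds most of the coding sequence. It has 817 bp with a GC content of 73.7% and held 0 CTCF and 0 IgG tags, and its best site had a p of 6.21e-05. With 0 tags in both libraries nothing could be compared there. Over all genes, 36.4% had a summit inside, as had Klf4 and Klf5 but not Klf2. That share is not adjusted for the length of the genes.

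**Figure D2:**
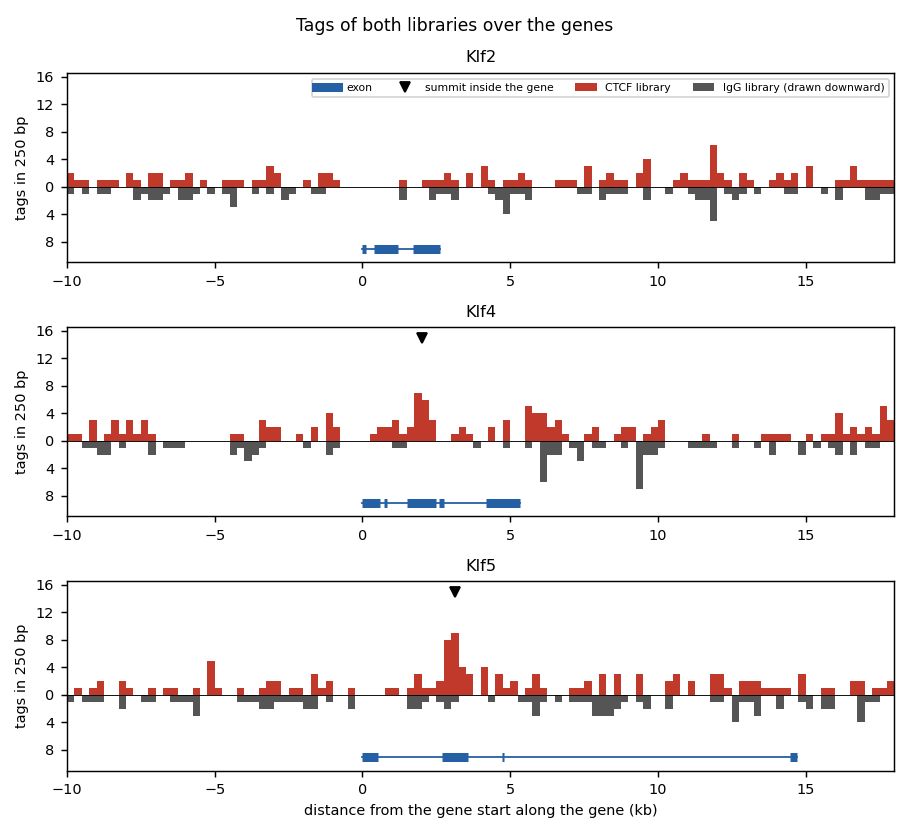
Tags in 250 bp bins along Klf2, Klf4 and Klf5, with the distance from the gene start in the direction of transcription in kb on the horizontal axis. CTCF tags are drawn upward and IgG tags downward, blue boxes are exons and black triangles mark the summits inside the genes, in exon 3 of Klf4 and exon 2 of Klf5.

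None of the 3 gene starts was called for CTCF. Within 1 kb of the start, Klf2 had 1 CTCF and 0 IgG tags, Klf4 had 7 and 1, and Klf5 had 3 and 2. The medians over all gene starts were 7 CTCF and 5 IgG tags. The ratio scaled to library totals was 6.66 at Klf4 (exact 95% interval 0.856 to 300.4) and 1.43 at Klf5 (0.164 to 17.1). The exact binomial test (two-sided) gave a Benjamini-Hochberg adjusted p = 0.315 at Klf4 and 1 at Klf2 and Klf5, while 10.4% of 21619 gene starts were called higher for CTCF. The fewest CTCF tags at a called start were 9, more than at any of the 3 genes. With 2 kb on each side, Klf4 had 26 tags for CTCF and 6 for IgG (adjusted p = 0.00541 in the exact test), and 16.8% of all gene starts were called at that width. This window takes in the summit of exon 3 and part of its peak, which was called for CTCF over IgG from these tags. The call at this width is therefore given as a description and not as a separate result on the start.

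These starts are GC-rich. The 2 kb around the start had a GC content of 64.8% at Klf2, 64.6% at Klf4 and 59.7% at Klf5, against a median of 51.1% over all genes. At the 2330 starts with a GC content of 60% or more, the median was 5 CTCF and 3 IgG tags, against 7 and 5 over all starts. The part of base composition in the counts above was not tested. Klf4 and Klf5 had a summit within 5 kb of the start, as had 24.3% of all genes.

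The other 14 Klf genes served as a family list. None of them was called at the start in the exact binomial test, beside the 10.4% of all genes. At an unadjusted p under 0.05, 2 of the 14 were higher for CTCF, beside 17.2% of all gene starts. These were Klf15, with 9 CTCF and 1 IgG tags (adjusted p = 0.144 in the exact binomial test), and Klf1, the erythroid factor of the family, with 19 and 7 (exact binomial test, adjusted p = 0.187). Of the 14, 6 had a summit inside the gene, beside 36.4% of all genes, and 2, Klf10 and Klf16, had one within 5 kb of the start. Their nearest summits lay between 1570 bp (Klf16) and 430808 bp (Klf6) from the start, a range that takes in the distances of Klf2 (25538 bp), Klf4 (1998 bp) and Klf5 (3119 bp). The median over all genes was 15357 bp.

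To the left of Klf4, downstream of the gene, 4 summits followed. The nearest lay 46495 bp from the gene end between genes, with a height of 15 tags, a score of 91.23 and 20 CTCF against 1 IgG tags. It had no motif, and with a GC content of 61.1% and 15 CpG it was, after the summit in exon 3, the richest in CpG of the region. The next were a summit of 8 tags, 81.2 kb from the start, in an intron of the non-coding transcript Gm12510, and a summit of 9 tags, 134.2 kb from the start. Both had reverse motifs. The farthest, 167.9 kb from the start in an intron of Rad23b, which encodes a protein of nucleotide excision repair, was the highest of the 3 regions. Its height was 29 tags, above 97.7% of all summits, its score 413.6 and its peak held 64 CTCF and 5 IgG tags. The motifs at the 4 summits that had one within 150 bp were all reverse and so pointed away from the stretch upstream of Klf4. The peak of the highest summit also holds a forward motif with a p of 7.02e-06, 477 bp from the summit.

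On the right, upstream of Klf4, the nearest summit lay 690189 bp away, beyond the region. It had a height of 13 tags, a score of 89.09, 19 CTCF and 3 IgG tags in the peak and again a reverse motif. The distance from the summit in exon 3 to this one was 692.2 kb, which ranked 463 from the longest among 33736 intervals between neighbouring summits, whose median was 25.6 kb. By that measure the 72.6 kb around Klf2 was longer than 76.1% of intervals. By the measure over genes used for Klf2 and Klf5, the summits on either side of Klf4 lay 742.0 kb apart, and 90.5% of genes had a shorter interval. Klf4 was the only protein-coding gene to overlap the 692.2 kb interval, together with 5 other annotated genes. Outside the peaks this interval held 1771 CTCF and 2598 IgG tags, or 2.56 and 3.76 per kb. Scaled to library totals, the ratio of CTCF to IgG was 0.649 (exact 95% interval 0.611 to 0.690), below the 0.897 found outside all peaks. Long intervals of the genome shared a low ratio, with a median of 0.712 (quartiles 0.689 and 0.742) over 760 intervals of at least 500 kb with at most 10% unknown bases, and 1.71% of them were below the ratio upstream of Klf4. The interval held 37 sites that match the motif at p 1e-05.

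Klf5 stood nearer to a summit downstream than upstream. On the left, upstream, the nearest summit lay 156285 bp away in an intron of Pibf1, a gene that encodes a centrosomal protein, with a height of 15 tags, a score of 110.78, 30 CTCF and 6 IgG tags and a forward motif with a p of 4.71e-09. On the right, 36537 bp beyond the gene end, lay a summit of 13 tags between genes, with a score of 79.66, 15 CTCF and 2 IgG tags and no motif. The interval between these summits was 207.5 kb, and 68.3% of genes had a shorter one. The nearest summit with a motif on the right lay 581539 bp away, had a height of 16 tags and was reverse. Between summits with a motif, Klf5 thus lay in a convergent interval, as did 27.7% of 22166 genes when summits without a motif are passed over in the same way. Klf4 lay between reverse motifs, with the left one at 75839 bp.

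**Figure D3:**
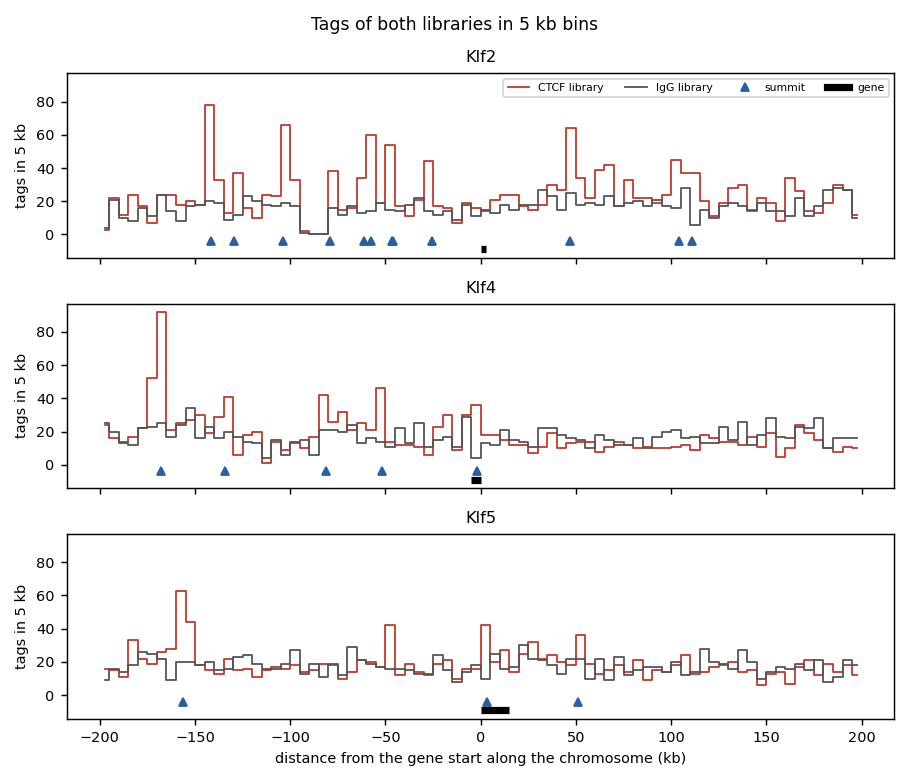
Tags of the CTCF and IgG libraries in 5 kb bins, by distance from the gene start along the chromosome in kb. Blue triangles mark summits and black bars the genes. CTCF tags rise over IgG tags at most summits, and the Klf4 panel shows no such rise to the right of the gene over 200 kb.

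In the peaks of the Klf2 region lay 297 CTCF and 29 IgG tags, a scaled ratio of 9.75. In those of the Klf4 region lay 143 and 17 tags, a ratio of 8.01, and in those of the Klf5 region 68 and 11 tags, a ratio of 5.89. The peaks were called for CTCF over IgG from these tags, so these ratios are high by that choice and are given as a description. Outside the peaks, the IgG library itself had 1.04, 1.10 and 1.15 times its genome density outside all peaks in the Klf2, Klf4 and Klf5 regions.

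Outside the peaks the Klf2 region differed from the other two beyond counting error, while the intervals of Klf4 and Klf5 overlapped. The Klf2 region held 1633 CTCF and 1265 IgG tags, a ratio of 1.23 (exact 95% interval 1.14 to 1.32). The Klf4 region held 1320 and 1355 tags, a ratio of 0.927 (0.859 to 1.00), and the Klf5 region 1480 and 1465 tags, a ratio of 0.962 (0.894 to 1.03). Over the regions of 22292 protein-coding genes the median was 1.05 (quartiles 0.873 and 1.29), so that all 3 lie within the quartiles, with 69.6%, 33% and 37.9% of genes lower. With 1 kb beside every peak also left out, the ratios were 1.17, 0.898 and 0.949.

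The sides of a gene could differ as much as the genes. Upstream of Klf4 the 200 kb outside peaks held 514 CTCF and 675 IgG tags, a ratio of 0.725 (0.645 to 0.814). Downstream of Klf4 they held 784 and 676 tags, a ratio of 1.10 (0.995 to 1.23), and these intervals do not overlap. At Klf2 the sides had ratios of 1.24 (1.11 to 1.39) upstream and 1.22 (1.11 to 1.35) downstream. At Klf5 they had 1.03 (0.924 to 1.14) upstream and 0.879 (0.790 to 0.978) downstream, with overlapping intervals. By side, Klf4 had 4 summits downstream and 0 upstream, Klf2 had 9 upstream and 3 downstream, and Klf5 had 1 on each side. How the number of summits goes with these ratios was not tested. A part of unlisted peaks in these ratios was not tested.

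**Figure D4:**
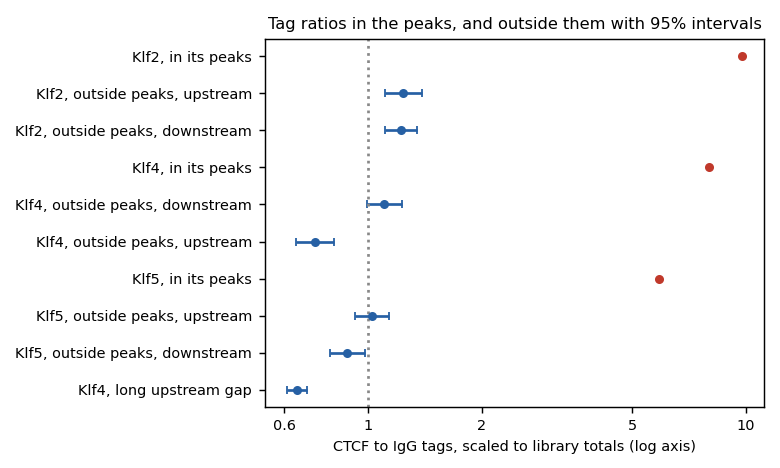
Ratio of CTCF to IgG tags scaled to library totals, on a log axis, in the peaks (red, without intervals, since the peaks were chosen by these tags) and outside the peaks (blue) of each region by side, with exact 95% intervals for counting error. The ratios in the peaks lie between 5.89 and 9.75, those outside the peaks between 0.649 and 1.24, and the lowest are those upstream of Klf4.

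Windows of 1 kb outside the peaks were tested to find CTCF sites that the list might lack. None of the 357 windows at Klf2, 382 at Klf4 and 404 at Klf5 was called, nor was any of 2292038 windows over the genome (0%, exact binomial test with Benjamini-Hochberg adjustment). The most CTCF tags in a window were 17 at Klf2, 18 at Klf4 and 17 at Klf5. Even 18 CTCF against 0 IgG tags did not pass the adjustment, so no window of these regions could be called higher. The test therefore cannot tell whether the list lacks sites there. With windows of 2 kb, 275 were called higher and 33 lower over the genome, and with 1 kb windows scaled by tags outside all peaks 8 were called higher, with 0 in the 3 regions in either case. At an unadjusted p under 0.05, 11, 7 and 6 of the 1 kb windows were higher for CTCF, beside 1.48% of all windows, and 3, 8 and 5 were lower, beside 2.7%. The window with the lowest p of the 3 regions, named after its values were seen, held 18 tags for CTCF and 0 for IgG (exact binomial test, p = 8.34e-06, adjusted p = 0.335). It lies 172.8 kb downstream of Klf4, 4983 bp left of the highest summit. In the window is a forward motif with 8 CTCF and 0 IgG tags within 150 bp, which faces the reverse motif of the highest summit at a distance of 5035 bp. Klf5 had a like neighbour, also singled out after its values were seen. A reverse motif 2476 bp to the right of the forward motif in Pibf1, outside the peaks, had 8 CTCF and 0 IgG tags within 150 bp. Its 1 kb window held 15 CTCF and 2 IgG tags (exact binomial test, adjusted p = 0.837). Other motifs outside the peaks had as many CTCF tags, such as those at chr8:74978014 (9 CTCF and 1 IgG) and chr4:55481969 (8 and 0). Whether such motifs tend to face a peak was not tested. The motifs singled out at Klf4 and Klf5 are shown 5′ to 3′ on their strand, in capitals.
Klf4, motif left of the highest summit (chr4:55372397-55372457, plus strand): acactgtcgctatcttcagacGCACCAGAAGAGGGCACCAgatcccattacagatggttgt
Klf5, motif right of the summit in Pibf1 (chr14:99544108-99544168, minus strand): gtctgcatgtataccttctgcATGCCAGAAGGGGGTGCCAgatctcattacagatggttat

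Most motifs of the regions lay outside the peaks. At p 1e-05 the Klf2 region held 113 motifs, 9 of them in peaks, the Klf4 region 49 with 6 in peaks and the Klf5 region 56 with 1 in a peak. Within 150 bp of the motifs outside the peaks, and outside the peaks, 162 CTCF and 68 IgG tags lay at Klf2, each tag counted once, a ratio of 2.27 (exact 95% interval 1.70 to 3.06). At Klf4 the counts were 65 and 24, a ratio of 2.58 (1.59 to 4.31), and at Klf5 61 and 32, a ratio of 1.81 (1.16 to 2.88). In all 3 regions the CTCF library was thus higher next to motifs outside the peaks than over the rest of the unlisted sequence, beyond counting error, and single motifs had at most 9 CTCF tags there.

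The score of a motif is its log2 odds against the base composition. Of 203 motifs with a score under 20, 10 lay in peaks (4.93%). Of 15 motifs with a score of at least 20 in the 3 regions, 6 lay in peaks (40%), with 10 to 38 CTCF tags within 150 bp, and 9 lay outside, with 1 to 8 CTCF and at most 2 IgG tags. The best match of the Klf2 region, AGGCCAGCAGAGGGCACTG at chr8:74814004-74814022 on the minus strand, had a score of 24.7, above those of the motifs in peaks, of which the highest was 24.1. It lies 28.9 kb upstream of Klf2, 3.4 kb left of the nearest summit, and had 3 CTCF and 2 IgG tags. The run CCAGAAGAGGGC, read on either strand as part of a motif, recurs in the sequences above. It was present in 45 of 202 motifs outside the peaks of the 3 regions (22.3%) and in 16.2% of the motifs at all summits.

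**Figure D5:**
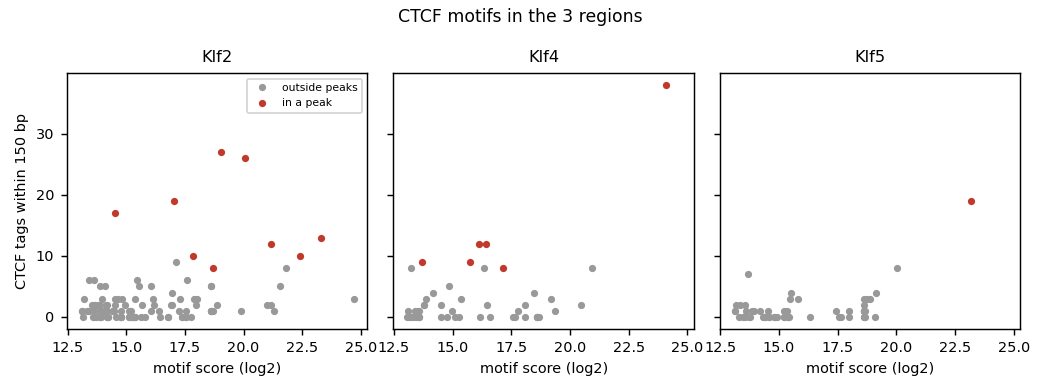
CTCF motifs at p 1e-05 in the 3 regions, with the motif score (log2) on the horizontal axis and the CTCF tags within 150 bp of the motif on the vertical axis. Red points lie in a deposited peak and grey points outside. The motifs in peaks have 8 CTCF tags or more, and motifs outside reach scores of 24.7 at Klf2 with 9 CTCF tags or fewer.

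The study lists ChIP-PCR primers named Klf5, which place the amplified stretch among these sites. Its methods describe ChIP of RAD21, a cohesin subunit, in RAD21-tagged cells, and not of CTCF. The loci it measured by PCR include RAD21 sites that were defined by the lack of both a CTCF peak and a CTCF motif. Whether the Klf5 product is one of these was not examined, and if it is, a lack of CTCF there follows from that choice. The CTCF tags given here therefore do not test the result of that assay. The forward primer ggtgtcaggggatgtggcttgc and the reverse primer acgcaccaccctgtgaagttg match mm9 at 1 place, a product of 146 bp at chr14:99739101-99739246. It lies between genes, 41.3 kb downstream of the start of Klf5 and 9988 bp left of the nearest summit, in the interval between the summit of exon 2 and the next one. Within 500 bp of its centre lay 8 CTCF and 7 IgG tags, a scaled ratio of 1.09 (exact 95% interval 0.345 to 3.52). Within 1 kb the counts were 13 and 7, a ratio of 1.77 (0.656 to 5.23). The best CTCF site within 150 bp had a p of 2.26e-04, above the threshold. A difference between the libraries was not detectable there at this depth.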

How the data were processed

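CTCF ChIP-seq of 1 tagged R1/E ESC line was taken as 2 libraries, 1 per antibody. The authors deposited each aligned tag as a count of 1 on mm9, without normalization. They also deposited peaks with the MACS 1.4 score and summits with the signal, the tag pileup at the summit, both called once against IgG. The aligner is not given in the sources used here. All coordinates lay within the lengths of NCBI m37.

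Each tag was shifted 92 bp toward the fragment centre, since plus and minus tags stood 184 bp apart at the 1000 peaks with the highest scores. Counting used numpy 2.4.6 and scipy 1.17.1 in Python 3.11.15, and figures matplotlib 3.10.9. A motif matrix was built from 192 CTCF motif sequences that the study's supplementary list gives at RAD21 binding sites in ESCs, not at CTCF peaks. It used a pseudocount of 1 and base frequencies of 0.29 and 0.21, and p-values are exact for it. Sequences were read from NCBI m37. Ratios were scaled to library totals and carry exact 95% (Clopper-Pearson) intervals. Tags are PCR products without molecular identifiers. Tests were exact binomial tests, two-sided, adjusted over all gene starts or windows at 0.05, and were tested on simulated data.

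The genes, lists and rules were chosen with earlier results of these data known. Sites named were the nearest summit on each side, the 3 highest per region, any summit in a gene or within 5 kb of its start, and genes holding or neighbouring these. Other sites were named after their values were seen. The GC limit of 60% at gene starts and the minimum of 500 kb for long intervals were also set after the values were seen.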

Additional observations from a re-analysis of the deposited data

How the results depend on the processing

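Of 73 alternatives to 23 results, 24 moved a value and 1 turned a call. With 100 kb on each side the Klf2 and Klf4 regions held 7 and 3 peaks, and with 500 kb the 3 regions held 31, 10 and 5. Of peaks with a score of at least 100 they held 7, 1 and 1, and the nearest such summit lay 46522 bp left of Klf2, 162529 bp left and 960713 bp right of Klf4 and 581539 bp right of Klf5. The nearest summit with a motif lay 75839 bp left of Klf4 and 581539 bp right of Klf5, and measured from the gene start the nearest summit was 1998 bp left at Klf4 and 3119 bp right at Klf5. At p 1e-06 or within 50 bp, 2 summits of the Klf4 region kept a motif, and at p 1e-04, 2 of the Klf5 region had one. Scaled by tags outside all peaks, the ratios outside the peaks were 1.37 at Klf2, 1.03 at Klf4 and 1.07 at Klf5, so that the ratios at Klf4 and Klf5, whose intervals hold 1 in either scaling, crossed 1. Within 500 bp 1101 and within 2 kb 3667 gene starts were called, Klf4 among the latter (adjusted p = 0.00541, exact binomial test). At Klf4 the 2 kb window takes in part of the peak in exon 3, which was called from the same tags. Without the shift, or within 500 bp, Klf2 had 0 tags at its start and no test. No paired analysis was possible because each antibody has only 1 library. At gene starts, 9 CTCF tags were the fewest called.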
